A study of Homo sapiens with 12 samples.

Results

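The KLF (Krüppel-like factor) genes KLF2, KLF3, KLF4, KLF5, KLF6, KLF7, KLF9, KLF10, KLF11 and KLF13 were examined, which are 10 of 19626 protein-coding gene records. They were chosen by name and not by a measured value, with earlier results of these data known. They are a part of the family, and the other KLF genes are counted below together with the SP genes. Every region that the lists of ARID1A and H3K4me3 regions hold was mapped at their promoters, taken as 1 kb on either side of any protein-coding transcription start site (TSS), and over each gene with 100 kb on either side. The regions came from CUT&RUN, in which an antibody tethers a nuclease that releases the DNA around its target, in RT112 cells. RT112 is a line from a transitional cell carcinoma of the human bladder, the study took it to be ARID1A wild type, and the labels name no treatment. The 12 samples were an Abcam antibody to ARID1A, a CST antibody to ARID1A, an antibody to H3K4me3 and an IgG control, with 3 replicates each, all from this single line.

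KLF proteins bind GC-rich and CACCC-containing DNA through zinc fingers near their carboxy terminus, and they act as activators or repressors according to the cofactors that their amino-terminal parts recruit. In stratified epithelia KLF5 is known from proliferating basal cells and KLF4 from differentiating cells above them, and in mice Klf5 is needed for the bladder urothelium to mature. ARID1A binds DNA within the BAF form of SWI/SNF, a remodelling complex that moves nucleosomes at promoters and enhancers, and H3K4me3 marks active promoters.

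The lists, of which chromosomes 1 to 22 and X were used, contained 37501 Abcam regions with a median width of 1486 bp, 32932 CST regions with a median of 1442 bp and 9765 H3K4me3 regions with a median of 3046 bp. Each list is 1 set of regions that the authors merged over the 3 replicates, and it gives positions alone. Hence a region is either listed or not, width is the only size that can be compared, depth and replicate error are unknown, and no comparison below carries a test. Regions of the IgG control were not analysed here. The epithelial origin of the line was checked against H3K4me3 at marker promoters: 12 of 12 urothelial and epithelial genes had it (KRT7, KRT8, GATA3 and PPARG among them), against 1 of 6 fibroblast genes (LUM), 0 of 4 immune genes and 0 of 3 endothelial genes. Of all protein-coding genes 53.1% had it. These markers cannot tell RT112 from another epithelial line.

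At their promoters 8 of the 10 KLF genes had regions of both ARID1A antibodies, against 38.2% of all protein-coding genes. H3K4me3 was listed at 7 of the 10, against 53.1% of all genes, and all 3 lists met at KLF3, KLF4, KLF5, KLF7, KLF10 and KLF13, 6 of the 10 against 33.8%. The other members each departed from that pattern. KLF9 and KLF11 had both antibodies without H3K4me3, a state found at 4.41% of all genes. KLF6 had H3K4me3 without any ARID1A region, as at 9.97% of genes, and KLF2 had no region of any list, as at 39.7%. When regions narrower than their list's median were dropped, both antibodies met at 5 of the 10 promoters, against 21.4% of all genes. The widest region at the promoters that had one had a median width of 2262 bp for Abcam, 1910 bp for CST and 4769 bp for H3K4me3 over the KLF genes, against 1740 bp, 1613 bp and 3156 bp over all genes.

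**Figure D1:**
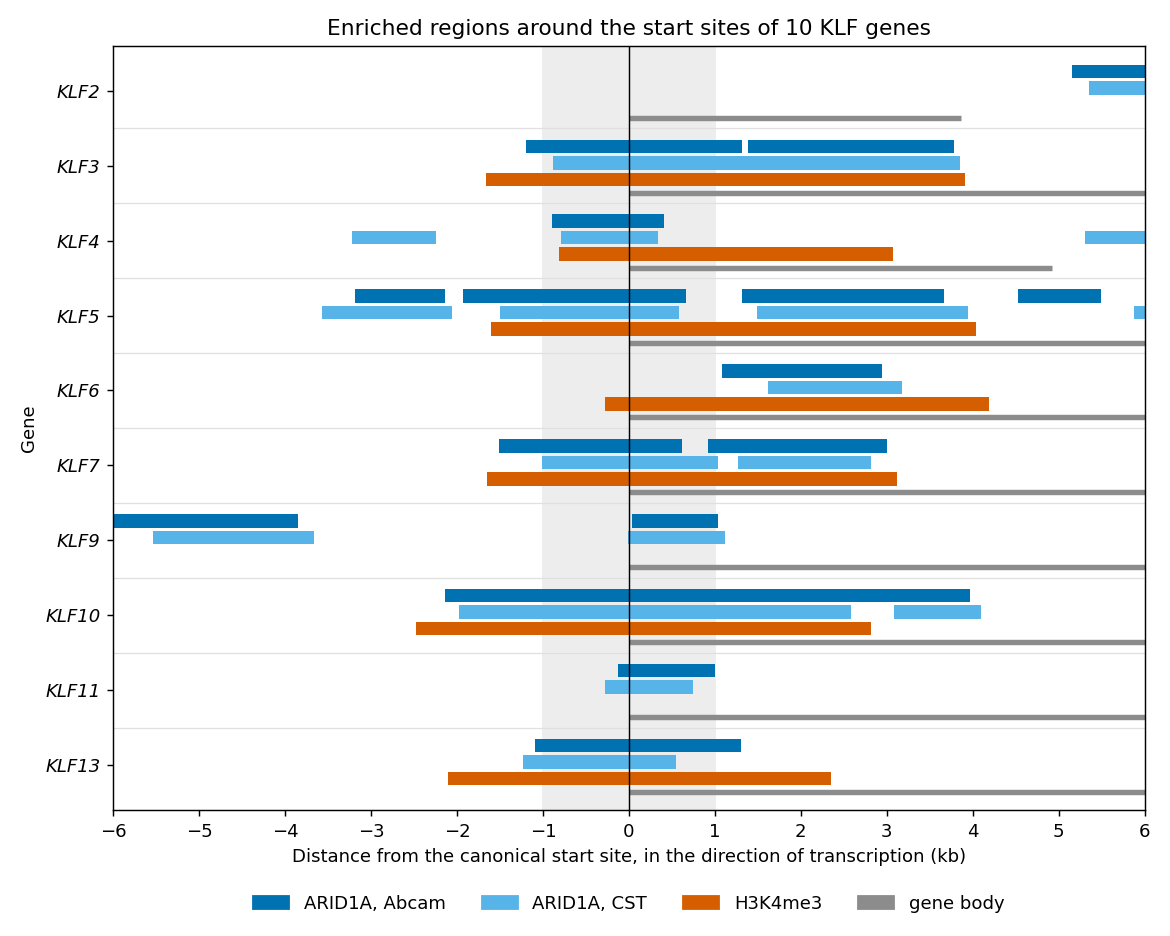
Regions of the 3 lists within 6 kb of the canonical start site of each KLF gene. The x axis is the distance from that site in the direction of transcription in kb, each coloured bar is 1 region (Abcam, CST and H3K4me3 from top to bottom), the grey bar is the gene body and the shaded band is 1 kb on either side of the site. ARID1A regions of both antibodies fall in the band at 8 genes, those of KLF6 start just past it and KLF2 has none there, while H3K4me3 bars are missing at KLF2, KLF9 and KLF11.

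KLF5 (chromosome 13, 73054976 to 73077541, plus strand, hg38) carried the main promoter signal at its canonical TSS. An Abcam region of 2595 bp from 73057072 to 73059666 and a CST region of 2081 bp from 73057507 to 73059587 covered that site. A second Abcam region, 1042 bp wide from 73055823 to 73056864, and a second CST region, 1507 bp wide from 73055438 to 73056944, lay wholly upstream of that site, nearer to the other TSS of the gene. The H3K4me3 region of 5637 bp ran from 73057406 to 73063042 and was wider than 95.7% of its list. It held the whole overlap of both antibodies at the canonical TSS and none of the upstream overlap.

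KLF4 (chromosome 9, 107484852 to 107490482, minus strand) had narrow ARID1A regions over its 3 TSSs. The Abcam region, from 107489359 to 107490665, was 1307 bp wide, and the CST region, from 107489433 to 107490562, was 1130 bp wide. Only 37.8% of the Abcam list and 27.8% of the CST list were narrower. Their overlap spanned 793 bp upstream to 336 bp downstream of the canonical TSS and lay wholly in an H3K4me3 region of 3880 bp (107486697 to 107490576) that reached 3072 bp into the gene. At KLF5 and KLF4 alike the H3K4me3 domain reached further into the gene than the ARID1A overlap over the canonical TSS, and at KLF5 a further shared ARID1A region lay in the downstream part of the domain.

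The 250 bases before the RefSeq start site (GRCh38.p14) of KLF5, KLF13 and KLF4 are shown. These genes were taken in order of Abcam promoter width among those matched in RefSeq. KLF10 was left out, as was KLF7, whose stretch overlaps an annotated exon. ARID1A regions of both antibodies and H3K4me3 cover the 250 bases of each, which were searched for words that KLF and SP proteins bind. Each is written 5′ to 3′ on the gene's own strand, and capitals mark CCNCNCCC, the CACCC-type word, or GGGCGG, the GC box, on either strand.
KLF5, chr13:73058755-73059004: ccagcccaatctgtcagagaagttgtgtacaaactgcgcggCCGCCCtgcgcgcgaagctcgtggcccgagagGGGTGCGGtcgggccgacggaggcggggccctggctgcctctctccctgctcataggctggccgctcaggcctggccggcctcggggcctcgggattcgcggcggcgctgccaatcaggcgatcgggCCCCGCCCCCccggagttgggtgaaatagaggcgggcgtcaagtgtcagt
KLF13, chr15:31326585-31326834: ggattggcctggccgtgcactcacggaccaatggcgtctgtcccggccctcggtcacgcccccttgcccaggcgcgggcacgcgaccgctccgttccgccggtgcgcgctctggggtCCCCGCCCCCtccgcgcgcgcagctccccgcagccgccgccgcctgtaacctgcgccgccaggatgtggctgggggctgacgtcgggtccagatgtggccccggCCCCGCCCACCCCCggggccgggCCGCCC
KLF4, chr9:107489770-107490019: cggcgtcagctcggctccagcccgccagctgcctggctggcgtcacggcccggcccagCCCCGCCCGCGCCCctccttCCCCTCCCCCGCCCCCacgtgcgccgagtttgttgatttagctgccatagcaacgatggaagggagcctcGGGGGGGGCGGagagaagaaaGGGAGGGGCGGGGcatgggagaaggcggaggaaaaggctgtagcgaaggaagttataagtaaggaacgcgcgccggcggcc
CCNCNCCC occurred at 3 places in the KLF5 stretch, at 4 in that of KLF13 and at 10 in that of KLF4, and GGGCGG at 2, 3 and 4 places of the same stretches, with overlapping matches of both words. Among 27305 RefSeq genes, 52.4% held CCNCNCCC and 42.3% GGGCGG in the same 250 bases, so that having the word is common. TGANTCA, the AP-1 word, was in none of the 3 stretches and in 6.6% of all.

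KLF6, a broadly expressed family member, and KLF2, known from quiescent endothelial and immune cells, were the KLF genes without ARID1A at the promoter. KLF6 (chromosome 10, 3775996 to 3785281, minus strand) had an H3K4me3 region of 4465 bp from 3781022 to 3785486 over all 3 of its TSSs. Its ARID1A regions lay inside that domain but further into the gene. The Abcam region, 1854 bp from 3782269 to 3784122, began 1087 bp downstream of the canonical TSS, and the CST region, 1564 bp from 3782028 to 3783591, began 1618 bp downstream. With a promoter window of 3 kb, KLF6 therefore joined the genes with all 3 lists, which made 7 of 10 against 35.6% of all genes.

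KLF2 (chromosome 19, 16324826 to 16328685, plus strand) had its nearest Abcam region 5156 bp and its nearest CST region 5353 bp downstream of the canonical TSS, past the end of the gene, from 16329982 to 16331708 and from 16330179 to 16331630. Its nearest H3K4me3 region lay 125683 bp upstream. KLF2 is a short gene, and neither antibody had a region within it.

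KLF9, a gene induced by glucocorticoid and thyroid hormones, and KLF11, a repressor first described as a TGF-β-inducible gene, had ARID1A but no H3K4me3. At KLF9 (chromosome 9, 70384604 to 70414657, minus strand) the Abcam region of 1003 bp (70413616 to 70414618) began 39 bp downstream of the only TSS, and the CST region of 1126 bp (70413544 to 70414669) covered it. The nearest H3K4me3 region was 153647 bp away. At KLF11 (chromosome 2, 10042849 to 10054836, plus strand) the Abcam region of 1120 bp (10043428 to 10044547) and the CST region of 1020 bp (10043278 to 10044297) covered 4 of 5 TSSs, and the nearest H3K4me3 region was 76128 bp away. These were narrow regions: between 16.8% and 27.5% of the lists were narrower.

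KLF10, the other TGF-β-inducible member, and KLF13, known from T lymphocytes, recruit the SIN3A corepressor as KLF9 and KLF11 do. KLF10 (chromosome 8, 102648784 to 102655725, minus strand) had the widest Abcam promoter region of the 10 genes. Its Abcam region of 6104 bp (102651759 to 102657862) was wider than 99.6% of the list, and its CST region of 4554 bp (102653143 to 102657696) was wider than 98.7%. Both exceeded the 90th percentile of width, which 1 of the 10 members and 3.81% of all genes did. The overlap of both antibodies ran from 1971 bp upstream to 2582 bp downstream of the TSS and lay wholly in an H3K4me3 region of 5283 bp (102652913 to 102658195). KLF13 (chromosome 15, 31326835 to 31435665, plus strand) had an Abcam region of 2393 bp (31325746 to 31328138), a CST region of 1772 bp (31325609 to 31327380) and an H3K4me3 region of 4456 bp (31324733 to 31329188), each of which covered its canonical TSS and not the other 2.

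KLF3, a repressor that binds the CtBP corepressors, and KLF7, known from neurons, completed the set. At KLF3 (chromosome 4, 38664197 to 38701517, plus strand) the antibodies differed in extent: the Abcam region covered 2518 bp (38663002 to 38665519) and the CST region 4726 bp (38663319 to 38668044, wider than 98.9% of its list). A separate Abcam region followed within the same CST region, as the map of promoters shows. The H3K4me3 region, 5574 bp from 38662533 to 38668106, ended close to the CST region. At KLF7 (chromosome 2, 207074137 to 207173856, minus strand) Abcam regions of 2132 bp (207165333 to 207167464) and 2076 bp (207162950 to 207165025) and a CST region of 2048 bp (207164910 to 207166957) lay within an H3K4me3 region of 4769 bp (207162835 to 207167603). The H3K4me3 region covered 8 of the 10 annotated TSSs of KLF7.

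The other 17 KLF and SP genes, which share the zinc finger domain, were counted in the same way. Both antibodies were listed at 5 of the 17 promoters, all of them SP genes: SP1, SP2, SP3, SP4 and SP6. SP1 and SP3 encode broadly expressed factors that bind GC boxes. The widest were SP3 with an Abcam region of 3837 bp and a CST region of 2868 bp and SP1 with 3708 bp and 4600 bp. No ARID1A region lay at 10 of the 17, among them KLF1, the erythroid factor, KLF12, KLF14 and KLF15, of which KLF12 and KLF14 had H3K4me3 regions of 2871 bp and 2444 bp. Of these 10, 7 had no region of any list, as at 39.7% of all genes, and 3 had H3K4me3 without ARID1A, as at 9.97%. Genes for cofactors and regulators of KLF proteins, 28 in all, had both antibodies at 21 promoters and H3K4me3 at 27, the latter against 53.1% of all genes. SIN3A had the widest Abcam region of these, 6422 bp, with 5027 bp for CST. SMAD3, a transducer of TGF-β signals, had 4191 bp and 4439 bp, RARA, the retinoic acid receptor α, 3801 bp and 5444 bp, and SMURF1, a ubiquitin ligase, 3318 bp and 2710 bp. The SMAD3 regions were not at its canonical TSS but at other TSSs, and began 58729 bp (Abcam) and 58703 bp (CST) downstream of it. Those of RARA likewise began 6257 bp and 4391 bp downstream of its canonical TSS. SIN3B and ESRRB had no ARID1A region, and SIN3B had H3K4me3. The shares with both antibodies in these groups are read against the 38.2% of all genes. The groups were picked, and the family was split into these 17 genes and the 10 examined, with earlier results of these data known. The contrast between 5 of 17 and 8 of 10 therefore depends on that split and was not tested.

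Away from promoters the KLF genes differed widely in how many ARID1A regions surrounded them. A shared region is an Abcam region that overlaps a CST region by at least 1 bp, and it is called distal when neither region comes within 1 kb of a protein-coding TSS. The 10 windows held 95 Abcam, 86 CST and 9 H3K4me3 regions, 76 shared regions and 64 distal shared regions, while 19 Abcam regions had no CST partner and 9 CST regions no Abcam partner. At least 1 distal shared region lay in 9 of the 10 windows, against 72.3% of all genes, and the median was 4.5 per KLF gene, against 2 over all genes. Per 100 kb of window the medians were 2 and 0.673. Over genes with at most 3 other protein-coding genes in the window, the median count was also 2. That limit is itself the median over all genes, whereas the windows of KLF4, KLF5, KLF6, KLF7, KLF9 and KLF13 held no other gene's TSS. This subset therefore does not match the KLF genes in how isolated they are. Window size sets these totals: with 50 kb on either side there were 33 distal shared regions and with 250 kb there were 118, at medians of 3 and 10.5 per KLF gene against 1 and 4 over all genes.

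**Figure D2:**
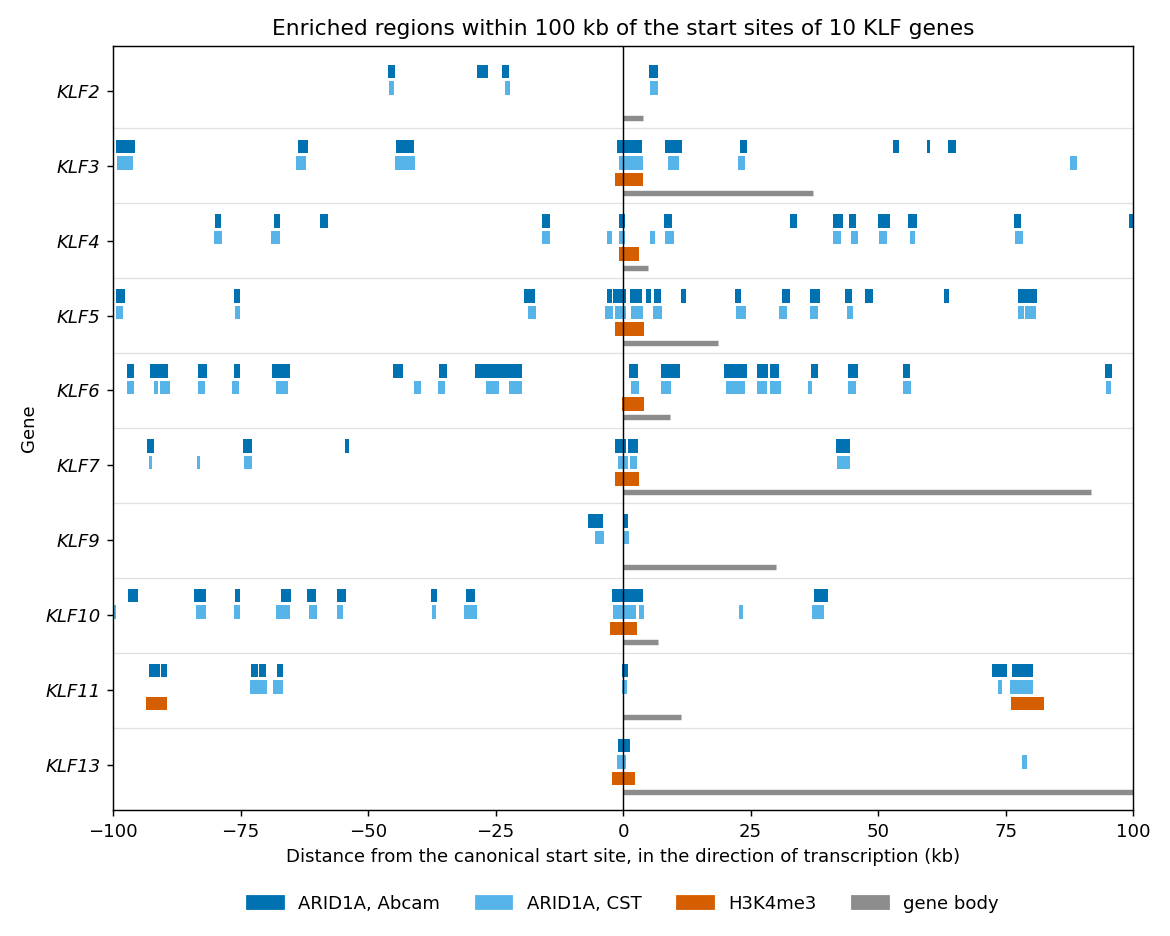
Regions of the 3 lists within 100 kb of the canonical start site of each KLF gene. The x axis is the distance from that site in the direction of transcription in kb, each coloured bar is 1 region and the grey bar is the gene body. ARID1A regions are strewn over both sides at KLF4, KLF5 and KLF6 and mostly upstream at KLF10, while KLF9 and KLF13 have them almost only at the start site, and H3K4me3 lies at the start sites, save for the regions in the KLF11 window, which are far from KLF11.

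Of the 64 distal shared regions 32 lay upstream of the gene, 7 within it and 25 downstream, and 52 were intergenic, 11 intronic and 1 over an exon. Their centres were at a median of 53.2 kb from the canonical TSS, with 8 within 10 kb, 23 from 10 to 50 kb and 33 beyond 50 kb. For 59 of them the KLF gene had the nearest protein-coding TSS. The windows of KLF4, KLF5, KLF6, KLF7, KLF9 and KLF13 held no TSS of another protein-coding gene, which largely sets that count. No such share was computed for other genes. Widths had medians of 1742 bp for Abcam and 1650 bp for CST, against 1576 bp and 1494 bp for the 21258 distal shared regions of the genome. Those past the 90th percentile of width in both lists were 7 of the 64 (10.9%), near KLF3, KLF5, KLF6 and KLF10, against 7.25% in the genome. Only 2 overlapped H3K4me3, or 3.12% with a 95% exact binomial interval of 0.381% to 10.8%, against 2.77% in the genome. These were the intragenic regions just inside KLF5 and KLF6, which lay 1315 bp and 1071 bp from the nearest TSS.

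KLF6, KLF5, KLF4 and KLF10 together held 48 of the 64 distal shared regions. KLF6 came first with 17, and 45 of the 19626 genes had more. No other protein-coding gene had a TSS in its window, and its 8.12 regions per 100 kb were exceeded at 5 genes. They lay on both sides, with 7 upstream, 2 in the gene and 8 downstream. The widest was an Abcam region of 7821 bp from 3804966 to 3812786, wider than 99.9% of the list, whose CST partner of 2640 bp ran from 3805018 to 3807657, with the overlap centred 21.1 kb upstream of the TSS. A second wide pair had its overlap centred 22013 bp downstream of the TSS, with 4580 bp for Abcam (3760936 to 3765515) and 3738 bp for CST (3761327 to 3765064).

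KLF5 had 13 distal shared regions, and 155 genes had more. They comprised 3 upstream, 2 in the gene and 8 downstream, and both of those farthest upstream lay in introns of PIBF1. The widest pair was an Abcam region of 4794 bp from 73170767 to 73175560, wider than 98.7% of its list, and a CST region of 8438 bp from 73166066 to 73174503, wider than 99.9%. That CST region also covered a separate Abcam region of 4315 bp from 73166259 to 73170573, so that these 2 of the 13 share a CST region.

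KLF4 and KLF10 had 9 each, and 626 genes had more. At KLF4, 6 lay downstream and 3 upstream, with no other protein-coding gene having a TSS in the window, and the widest Abcam region there measured 2324 bp (107437401 to 107439724). At KLF10, 8 of the 9 lay upstream, from 29980 bp to 101 kb away. The widest of these, an Abcam region of 3732 bp (102755464 to 102759195), was the farthest and was slightly nearer to a TSS of AZIN1. KLF3 had 5, the widest an Abcam region of 3623 bp from 38564852 to 38568474 at 97.7 kb upstream, and KLF11 had 4, the widest Abcam region, 2827 bp, running from 10115905 to 10118731. The nearest TSS to those 4 belonged to GRHL1 or RRM2. When each region of a pair had to overlap the other by at least 50%, the count of KLF11 dropped to 1, since a single CST region of 3278 bp lay under 2 of its Abcam regions and a CST region of 914 bp was the partner of the widest.

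KLF2 and KLF7 had 3 distal shared regions each, of which the widest Abcam regions were 1727 bp (16329982 to 16331708) and 2834 bp (207121464 to 207124297, in an intron of KLF7). KLF9 had 1, an Abcam region of 2974 bp from 70418511 to 70421484 with a CST region of 1869 bp, centred 4.69 kb upstream. KLF13 had none, although its window was the longest of the 10 and contained no other protein-coding TSS. Thus the KLF genes ran from 0 at KLF13 to 17 at KLF6. Of the 10, 8 exceeded the median of 2 over all genes, as did 7444 of the 19626 genes. The other 17 KLF and SP genes had a median of 2 distal shared regions and at most 8, at KLF12, the neighbour of KLF5.

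**Figure D3:**
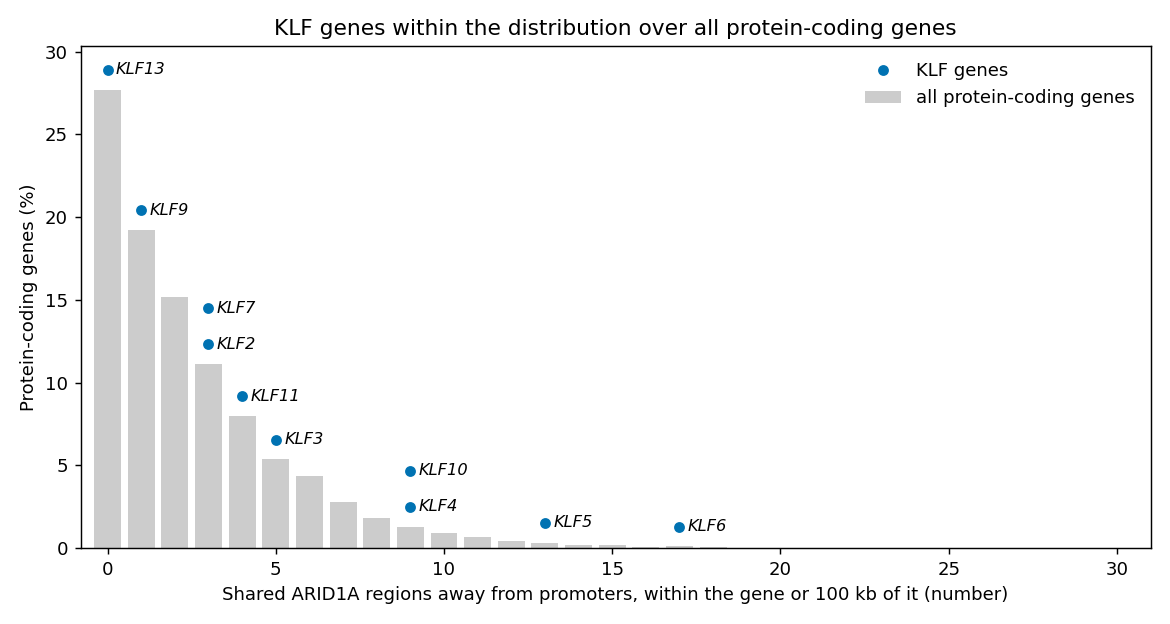
Number of distal shared ARID1A regions within each gene or 100 kb of it (x axis) against the percentage of the 19626 protein-coding genes with that number (grey bars, y axis). Dots mark the KLF genes at their own counts and are placed above the bars for legibility, so their height carries no value. KLF6 with 17 and KLF5 with 13 lie far to the right of the median of 2, and KLF13 with 0 and KLF9 with 1 lie below it.

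The stretch between KLF5 and KLF12 has no protein-coding gene over 608547 bp (chromosome 13, 73077542 to 73686088). It held 36 shared ARID1A regions, or 5.92 per 100 kb, with 45 Abcam regions, 35 CST regions and 0 H3K4me3 regions. Among 1589 such stretches of at least 200 kb the median was 0.277 per 100 kb, and 584 (36.8%) held no shared region. The KLF5 stretch ranked 7 of the 1589, and it ranked 1 among the 676 of at least 500 kb. With regions narrower than their list's median dropped, 22 shared regions were left in it.

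The 36 regions were not spread evenly. In successive bins of 100 kb from the end of KLF5 there were 8, 9, 7, 5, 1 and 5, with 1 more in the last short bin. The longest stretch without a shared region, 99.4 kb, began 421 kb from KLF5, and the median spacing of centres was 8.91 kb. The Abcam regions of the 36 shared regions, without the unpaired Abcam regions, covered 13.4% of the stretch. Their median width among the shared regions was 2070 bp, and 28 of the 36 were wider than the median of the Abcam list. None lay within 1 kb of a TSS of a long noncoding RNA, while 8 lay in the body of LINC00393.

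The widest shared regions were scattered along the stretch. Next to the pair at 90.9 and 95.1 kb from the end of KLF5 (Abcam 4315 and 4794 bp) came an Abcam region of 3724 bp at 61.3 kb. Further on, an Abcam region of 3197 bp (73286359 to 73289555) lay at 210 kb, and one of 3969 bp (73334001 to 73337969), with a CST region of 5142 bp, at 258 kb. A further 4 of the 10 widest were in LINC00393, at 351, 373, 389 and 530 kb, with Abcam widths of 4558 bp (73426678 to 73431235), 3731 bp (73448933 to 73452663), 2852 bp (73464942 to 73467793) and 2676 bp (73606601 to 73609276). The remaining one, at 322 kb, measured 2602 bp for Abcam and 1364 bp for CST. The wide regions thus reached far past the 100 kb window of KLF5.

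**Figure D4:**
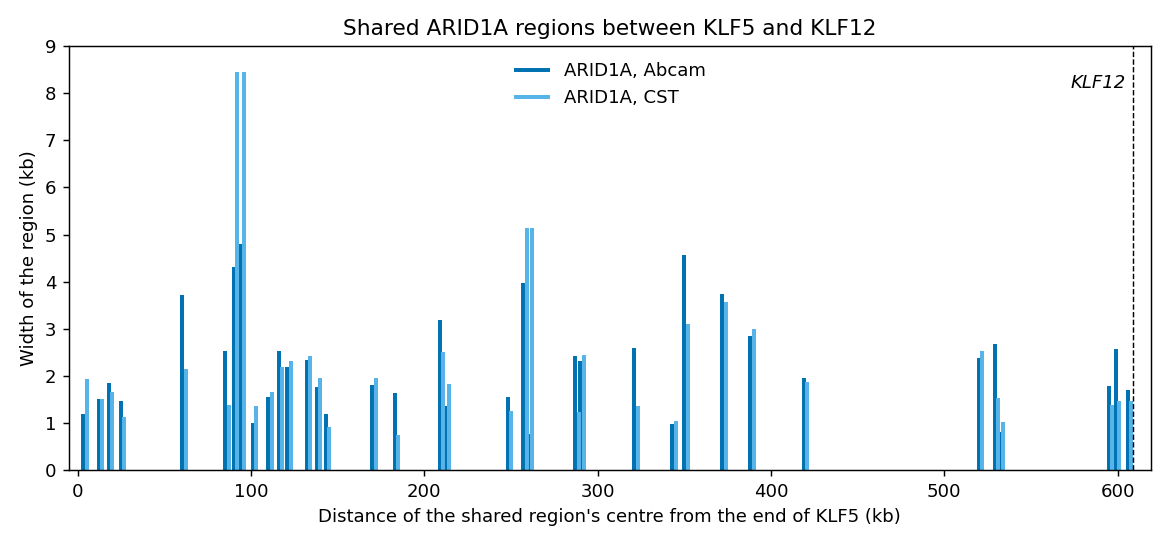
Shared ARID1A regions between KLF5 and KLF12. The x axis is the distance of the region's centre from the end of KLF5 in kb and the height of each line is the width of the Abcam or CST region in kb. Paired lines are set slightly apart, and a CST region that covers 2 Abcam regions is drawn at both. Regions are dense over the side nearer KLF5, the longest stretch without any is 99.4 kb and the tallest line is the CST region of 8438 bp.

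Of the 10 genes, KLF3, KLF4, KLF6 and KLF7 also bordered stretches of at least 200 kb, and these were above the median density. The one between PITRM1 and KLF6 held 24 shared regions in 603 kb (3.98 per 100 kb, rank 41 of 1589), and the one between KLF6 and AKR1E2 held 35 in 1001 kb (3.5 per 100 kb, rank 62). In both the fullest bins lay next to KLF6, with 8 regions in the last 100 kb before KLF6 on the PITRM1 side and with 7 and 9 in the nearest 200 kb on the AKR1E2 side. Between TBC1D1 and KLF3 there were 17 in 525 kb (rank 79), between KLF4 and ACTL7B 31 in 1364 kb (rank 155), and between KLF7 and CREB1 7 in 356 kb (rank 188). In the KLF3 stretch the 2 fullest bins, with 5 and 4 regions, were 400 to 525 kb from KLF3, whereas the 100 kb next to it held 3. In the KLF4 stretch the 2 fullest bins, with 5 and 7 regions, were 900 to 1100 kb from KLF4, whereas the 100 kb next to it held 3. No H3K4me3 region lay wholly within any of these stretches, while those over the promoters of KLF3, KLF4 and KLF6 crossed an edge.

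**Figure D5:**
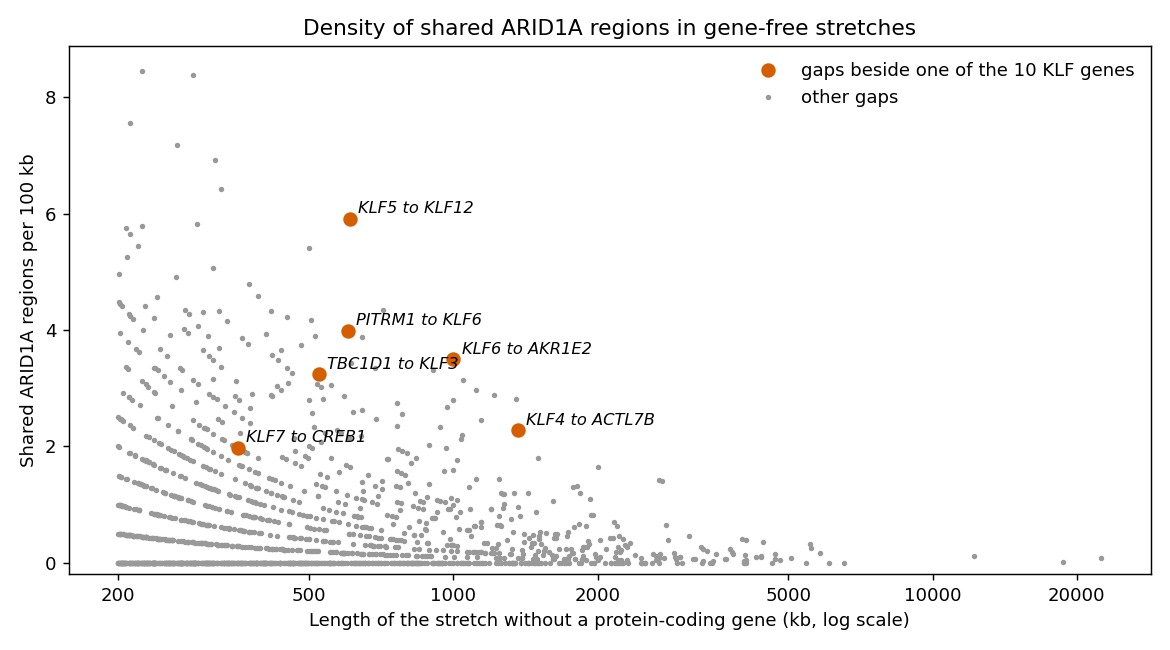
Density of shared ARID1A regions per 100 kb (y axis) against length in kb on a log scale (x axis) for 1589 stretches of at least 200 kb without a protein-coding gene. Large dots mark the 6 stretches beside one of the 10 KLF genes examined and small dots all others, other KLF genes included. The KLF5 to KLF12 stretch, at 5.92 per 100 kb, is the highest of those of at least 500 kb, and the other 5 large dots lie between 1.97 and 3.98.

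The DNA at the centres of the distal shared regions was searched for 12 words, each on both strands, in the central 200 bp of the overlap of both antibodies. TGANTCA, bound by AP-1 (JUN and FOS dimers), was in 14 of the 64 regions near KLF genes, or 21.9% (95% exact binomial interval 12.5% to 34.0%, counting error only), against 27.0% of all 21258 distal shared regions and 3.05% of promoters. AGATAA, the GATA word, was in 15.6%, against 14.5%, and AGGTCA, the nuclear receptor half-site, in 18.8%, against 14.6%. TGTGGTT, bound by RUNX factors, was in 12.5% (5.55% to 23.2%), against 6.07%, and 5 of these 8 regions were near KLF6. Of the words of the KLF and SP proteins themselves, CCNCNCCC was in 15.6%, against 17%, and GGGCGG in 6.25%, against 5.31%, while promoters held them at 59.1% and 53.9%. With the central 400 bp TGANTCA was in 46.9% of the regions near KLF genes and 45.3% of all, and over the whole overlap in 76.6% and 72.4%. In the central 200 bp, the E-box CACGTG alone of the 12 words had an interval for the KLF genes that left out the value of all regions. It was in 5 of 64 regions or 7.81% (2.59% to 17.3%), against 2.25%. With the central 400 bp it was in 7.81% against 4.51% and over the whole overlap in 17.2% (8.90% to 28.7%) against 14.5%, and both intervals took in the value of all regions. Over the whole overlap the intervals of 2 other words left out that value. They were TGTGGTT with 43.8% (31.4% to 56.7%), against 28.8%, and AGATAA with 75% (62.6% to 85%), against 59.8%. The overlaps near KLF genes were longer, with a median of 1438 bp against 1262 bp. No allowance was made for the number of words searched.

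Sites with the AP-1 word near 7 of the KLF genes are written out below, in 13 of the 14 regions (that near KLF10 is not shown), since it was the most frequent of the 12 words and since all 3 distal regions of KLF2, the gene with no region at its promoter, held it. Each line gives 41 bases of hg38 on the plus strand around the match nearest to the centre of the region, with the word in capitals and its distance from the canonical TSS.
KLF2, 45.4 kb upstream, chr19:16279373-16279413: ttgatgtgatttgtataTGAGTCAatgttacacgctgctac
KLF2, 22.9 kb upstream, chr19:16301948-16301988: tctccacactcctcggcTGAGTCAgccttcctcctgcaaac
KLF2, 6.13 kb downstream, chr19:16330938-16330978: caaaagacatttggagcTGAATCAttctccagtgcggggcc
KLF3, 62.9 kb upstream, chr4:38601281-38601321: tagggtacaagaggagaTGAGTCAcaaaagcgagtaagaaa
KLF3, 23.5 kb downstream, chr4:38687676-38687716: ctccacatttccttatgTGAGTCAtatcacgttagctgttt
KLF4, 50.9 kb downstream, chr9:107438840-107438880: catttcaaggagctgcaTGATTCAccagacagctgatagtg
KLF4, 42 kb downstream, chr9:107447743-107447783: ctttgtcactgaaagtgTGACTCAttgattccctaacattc
KLF4, 67.9 kb upstream, chr9:107557682-107557722: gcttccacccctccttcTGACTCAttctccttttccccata
KLF5, 31.7 kb downstream, chr13:73090658-73090698: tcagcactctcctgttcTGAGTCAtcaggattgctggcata
KLF6, 95.2 kb downstream, chr10:3690015-3690055: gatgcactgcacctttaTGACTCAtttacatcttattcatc
KLF6, 55.6 kb downstream, chr10:3729584-3729624: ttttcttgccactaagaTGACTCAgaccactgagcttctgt
KLF7, 73.7 kb upstream, chr2:207239606-207239646: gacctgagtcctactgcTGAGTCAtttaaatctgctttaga
KLF11, 72.2 kb upstream, chr2:9971327-9971367: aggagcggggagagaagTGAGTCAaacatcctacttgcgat
The middle base of the word was C or G, as in the consensus of AP-1, in 12 of the 14 regions near KLF genes (85.7%) and in 75.7% of the 5749 distal shared regions with the word. The 2 others near KLF genes were the region 6.13 kb downstream of the KLF2 TSS and the one 50.9 kb downstream of the KLF4 TSS. This count was chosen after the matches had been seen. Among the 36 regions between KLF5 and KLF12, 8 of which are also among the 64, the AP-1 word was in 11.1% (3.11% to 26.1%), an interval that leaves out the 27.0% of all distal shared regions, and CCNCNCCC was in 2.78% (0.0703% to 14.5%), against 17%. AGATAA was in 22.2% (10.1% to 39.2%), against 14.5%. In the central 400 bp the AP-1 word was in 27.8% of them (14.2% to 45.2%), against 45.3%. CCNCNCCC was there in 5.56% (0.68% to 18.7%), against 29.5%, and AGATAA in 36.1% (20.8% to 53.8%), against 26.6%. Over the whole overlap the AP-1 word was in 69.4% of them, against 72.4%, and CCNCNCCC in 63.9%, against 60.4%. AGATAA was there in 86.1% (70.5% to 95.3%), against 59.8%. These whole-overlap shares come from regions that were wider than most.

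The central 200 bases of the widest distal shared region of KLF6, KLF3 and KLF9 are given because these have the widest Abcam region among the distal shared regions of each gene, though other regions of KLF6 and KLF3 had wider CST regions and wider overlaps, and KLF9 had 1 such region. They are hg38 on the plus strand, with any of the 12 words in capitals.
KLF6, chr10:3806238-3806437: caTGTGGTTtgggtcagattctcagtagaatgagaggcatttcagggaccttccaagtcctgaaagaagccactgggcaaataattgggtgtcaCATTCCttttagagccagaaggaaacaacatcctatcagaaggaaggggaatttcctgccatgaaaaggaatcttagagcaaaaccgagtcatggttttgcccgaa
KLF3, chr4:38566425-38566624: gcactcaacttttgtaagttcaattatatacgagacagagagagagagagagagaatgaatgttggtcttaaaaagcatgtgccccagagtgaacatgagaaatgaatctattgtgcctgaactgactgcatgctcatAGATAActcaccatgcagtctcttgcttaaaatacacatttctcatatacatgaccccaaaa
KLF9, chr9:70419249-70419448: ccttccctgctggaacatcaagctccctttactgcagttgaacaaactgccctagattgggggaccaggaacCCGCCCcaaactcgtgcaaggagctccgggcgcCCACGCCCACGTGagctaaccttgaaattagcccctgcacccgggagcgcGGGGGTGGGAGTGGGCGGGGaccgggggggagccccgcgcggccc
The KLF6 stretch held TGTGGTT and GGAATG, the TEAD word, here on the minus strand, and that of KLF3 held AGATAA once. The stretch 4.69 kb upstream of KLF9 differed from these in its words, with CCNCNCCC at 4 places, GGGCGG at 2 and the E-box CACGTG at 1. A match is a description of the letters and not a measured site.

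The positions that the antibodies gave were compared pair by pair. Over the 76 pairs in the 10 windows the centres of the Abcam and CST regions were a median of 220 bp apart and their overlap made up a median of 67.3% of their joint extent, against 162 bp and 73.6% over 28609 pairs in the genome. The Abcam region was the wider in 49 pairs (64.5%), against 59.0% in the genome. Among the widest regions the extents differed: at the KLF6 pair 21.1 kb upstream the CST region had 2640 bp to the 7821 bp of Abcam, and at the KLF5 pair the CST region had 8438 bp to the 4794 bp of Abcam. No replicate spread is at hand to set these distances against.

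The genes whose pattern was most like that of KLF5 were found by the Euclidean distance between percentile ranks over 4 measures, the widest Abcam, CST and H3K4me3 promoter regions and the number of distal shared regions, across all genes. NDUFAF6, which encodes a factor for assembly of respiratory complex I, was closest (distance 2.59), with promoter widths of 2921 bp, 2035 bp and 6037 bp and 14 distal shared regions. EPAS1, which encodes the hypoxia-inducible factor HIF-2α, followed (3.09), with 2465 bp, 2235 bp, 5936 bp and 10, and then IKZF2, a zinc finger factor of lymphocytes (3.31), with 2793 bp, 1917 bp, 5722 bp and 15. No other KLF gene was among these 3.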

How the data were processed

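CUT&RUN libraries of RT112 cells, 12 samples in 4 groups of 3 replicates, came from cells processed in a single CUT&RUN batch with E. coli DNA as a spike-in, and the libraries were made in a pair of batches whose membership is not stated. The sources used here do not say if the replicates were separate cultures. The authors trimmed reads, aligned them to hg38 with bwa-mem2, removed duplicates and reads without a unique position, called peaks with SEACR and merged replicates with bedtools. No tool versions are given in the submitters' processing notes. The methods name SEACR's relaxed mode and the list names say stringent, so the threshold is uncertain. The methods add that only a small top share of peaks was kept, so a region that is not listed may have had a peak that was dropped. Reads removed for mapping to several places can leave repeats without regions.

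The deposited lists give positions (chromosome, start, end) and no count, score or p-value. Positions are printed counting from 1. Regions on other sequences (152 Abcam, 159 CST, 14 H3K4me3) were left out, and all others fitted within the chromosome lengths of hg38. Genes and TSSs came from GENCODE 44, and the canonical TSS was that of the MANE Select or Ensembl canonical transcript. An overlap was at least 1 shared bp. An Abcam region was paired with the CST region that shared most bases with it. The TSSs of a gene were pooled, so Abcam, CST and H3K4me3 can lie at different TSSs of a gene. Neighbouring genes can share regions. Promoter sequences came from RefSeq. Of the 10 KLF genes 8 matched, KLF3 did not and KLF10 was not looked up. A stretch that overlaps an annotated exon was not printed. The central bases of the widest distal region of KLF5 are not reported here. Functions were tested on simulated data with planted regions and words. Analyses used Python 3.11.15, numpy 2.4.6, scipy 1.17.1 and matplotlib 3.10.9.

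The members, gene lists and words were chosen with earlier results of these data known. The rule for named genes and regions took all 10 members, up to 4 genes of each other list that had both antibodies and the widest Abcam promoter regions, the alphabetically first genes (up to 4) lacking ARID1A, the genes bounding stretches beside a member, the widest regions of each member, the 10 widest shared regions beside KLF5 and the 3 genes most like KLF5. Alternatives were other promoter windows, TSS choices, flanks, widths, overlaps and word windows, and joining of regions under 500 bp apart.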

Additional observations from a re-analysis of the deposited data

How the results depend on the processing

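No paired analysis was possible because the lists merge the replicates, and for the same reason no replicate could be left out. Under the 6 alternatives for promoters, the counts of KLF genes with H3K4me3 (5 to 7) and with all 3 lists (4 to 7) stayed within 1.5 times the main count, as did the counts of the other gene lists with both antibodies. Both antibodies were at 7 to 9 of the 10 promoters, except that 5 were left once regions narrower than their list's median were dropped. Without those narrow regions, 44 shared and 36 distal shared regions remained in the 10 windows and 22 shared regions between KLF5 and KLF12. A flank of 50 kb gave 44 shared and 33 distal shared regions and a flank of 250 kb gave 143 and 118, which follows from the smaller and larger windows. The share with TGANTCA was 46.9% in the central 400 bp and 76.6% over the whole overlap, which follows from the longer sequence. Overlap of at least 50% of both regions and joining of regions under 500 bp apart left the totals over the 10 windows and the count of the KLF5 stretch within 1.5 times, while the distal shared regions of KLF11 dropped to 1 under the overlap rule and 3 under joining, against 4. The share of distal shared regions with H3K4me3 ranged from 2.54% to 6.06%, and the median distance of paired centres from 195 to 277 bp. The lists give no depth, so a gene without a region cannot be told from one whose signal was just under the peak caller's threshold.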

Other observations

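Among the 28 genes for cofactors and regulators of KLF proteins, the ubiquitin ligase genes of the KLF5 protein differed at the promoter: WWP1 had both ARID1A antibodies and H3K4me3, while FBXW7 had H3K4me3 and a region of only 1 of the antibodies. Both SIN3 corepressor genes had H3K4me3, and SIN3A alone had ARID1A. The MEF2 genes MEF2A, MEF2C and MEF2D, whose products induce KLF2 in endothelial cells, had all 3 lists at their promoters, whereas KLF2 had none. At MEF2C the ARID1A regions and the H3K4me3 region lay at different TSSs, and MEF2C had no ARID1A region at its canonical TSS. These genes were chosen after their values were seen, and the lists give presence of regions and not expression.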
